A study of Rattus norvegicus with 96 samples.

Results

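The homeobox transcription factors named on the array were examined across 8 regions of the rat brain. Members were all genes whose symbol starts with Lhx, Lmx1, Dlx, Nkx, Isl, Meis, Pbx, Otx, Irx, Emx, Pou, Hox, Msx, Gbx, Barhl or Zfhx, or is that of a sine oculis gene such as Six3, followed by digits, letters or a hyphen. Of 82 symbols with such a start, 6 were set aside because they name no homeobox gene (Hoxa11-as, Islr, Islr2, Pbxip1, Pou2af1 and Pou2af3), which left 76 members among 14218 genes with a probe set of their own. Lmx1a, Lmx1b, Dlx2, Dlx6, Lhx6 and Lhx8 had no probe set that named only them and were not analysed here. The regions were the medial prefrontal cortex (mPFC), the basolateral and central amygdala (BLA, CeA), the dorsolateral and ventral bed nucleus of the stria terminalis (dlBNST, vBNST), the core and shell of the nucleus accumbens (NAcC, NAcSh) and the ventral tegmental area (VTA). Alcohol naive rats never drank alcohol. Non-dependent rats self-administered 10% alcohol for 4 weeks, and dependent rats did so and were then exposed to intermittent alcohol vapor for 4 weeks. Both were tested for alcohol intake again after that, the dependent rats in acute withdrawal. Tissue was microdissected 3 weeks after the end of vapor, along with that of naive rats of the same age. Each region and group had 4 arrays.

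Homeobox genes encode transcription factors that bind DNA through a homeodomain and set the identity of regions and neurons during brain development. Many are kept on in the adult brain, where each region carries its own combination of them. LIM, POU, Dlx, Nkx, Otx and Emx factors pattern the forebrain and midbrain, Meis and Pbx proteins of the TALE class bind DNA together with other homeodomain proteins, and Hox genes pattern the hindbrain and spinal cord.

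Values are log2 signals, on which a difference of 1 is a doubling, and a signal of 4 was taken as the line of background. Of 96 arrays, 4 were left out (CeA non-dependent 2, BLA non-dependent 3, VTA non-dependent 2 and vBNST dependent 1). Their best correlation with another array ran from 0.375 to 0.960, against 0.990 to 0.997 for the 92 arrays used. Labels of the VTA, mPFC, BLA and nucleus accumbens were checked with markers, and those of the CeA, dlBNST and vBNST were not. The dopamine transporter Slc6a3 averaged 10.5 in the VTA and at most 3.15 elsewhere, and the glutamate transporter Slc17a7 11.4 in the mPFC and 7.43 in the BLA. The adenosine receptor Adora2a averaged 9.95 in the NAcC and 8.54 in the NAcSh. Pitx3, another dopamine neuron marker, was near 2 in every region. Of other cortical-type markers, Tbr1 was at most 2.35 in any region and Neurod2 only 4.06 in the mPFC and 3.83 in the BLA, while Neurod6 was 10.6 and 10.7. In 5 arrays a list of markers of a neighbouring tissue was over 1 above the region's median (2 of the NAcSh, 2 of the dlBNST and 1 of the VTA), and leaving these out changed none of the 51 region calls picked by the naming rule. RNA input was 30 or 50 ng depending on the region, so that region and handling by region cannot be told apart. The 8 regions of a group came from the same 4 rats. No label says which arrays share a rat, so the tests between regions take arrays of shared animals as independent and their p-values measure only the spread between arrays. A lower signal of a gene can mean fewer cells that express it or less RNA per cell, and in dissected tissue these cannot be told apart.

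Fewer homeobox genes than genes in general were above background, and a larger share of them spanned a wide range among regions. Of the 76 members, 29 (38.2%) were above 4 in 1 or more regions, against 69.6% of all genes. In contrast to all genes, of which 54.3% were above 4 in all 8 regions, 9 members (11.8%) were, and 20 members (26.3%, against 15.3% of all genes) were above 4 in some regions and at or below it in others. The range between the highest and lowest region exceeded 3 in 15 members (19.7%), against 6.75% of all genes. Members that differed among regions, by limma's F-test at an adjusted p under 0.05 and a range over 1, numbered 28 of 76, where 44.6% of all genes were called, and the median range of the members, 0.60, was below the 0.88 of all genes. None of the 23 Hox genes was above 4 in any region, no array of theirs exceeded 3.89, and their median range was 0.33. Among the other 53 members the median range was 1.01 and 28 (52.8%) had a range over 1. By family, members above 4 in any region were 3 of 3 Dlx, 2 of 7 LIM, 1 of 4 Msx and Barhl, 4 of 6 Nkx, 3 of 5 Otx, Emx and Gbx, 5 of 10 POU, 1 of 4 sine oculis, 7 of 11 TALE and 3 of 3 Zfhx genes.

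**Figure D1:**
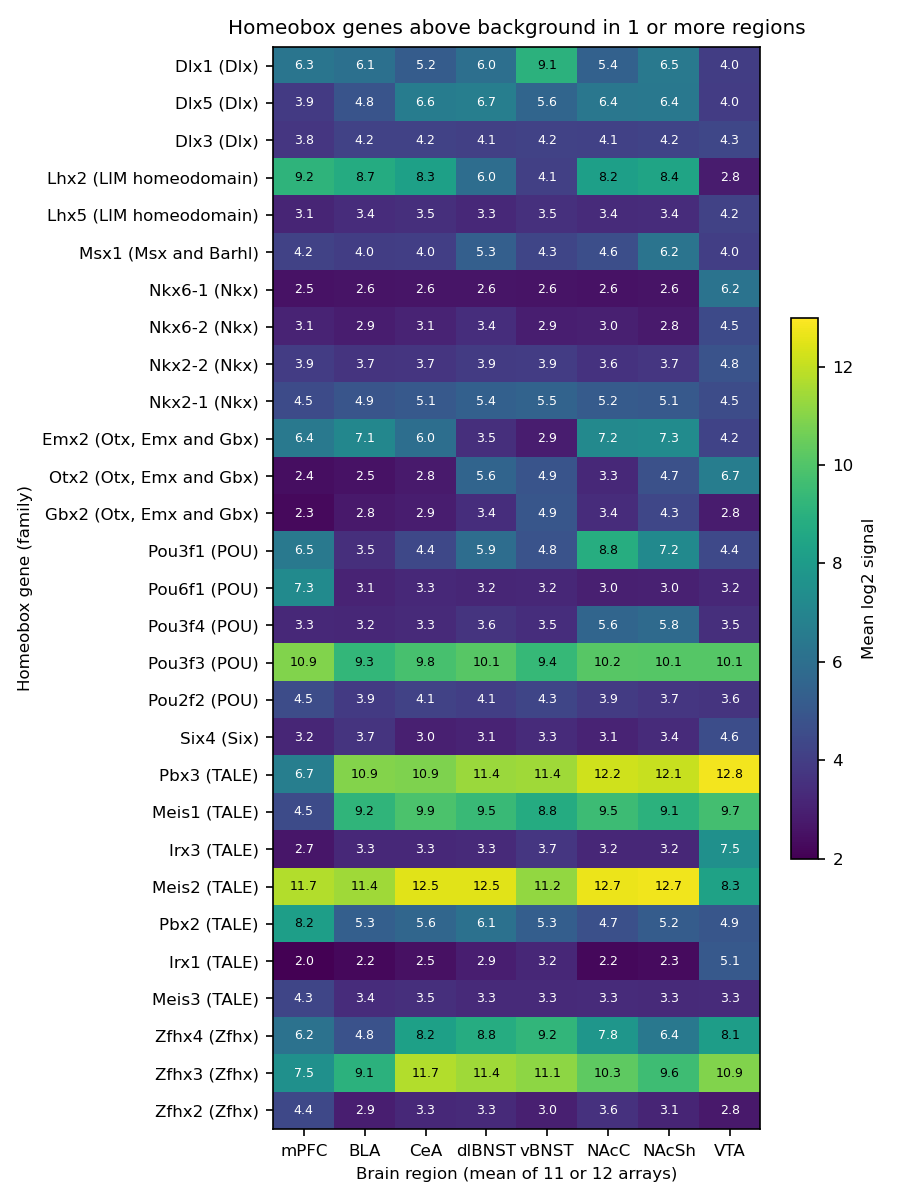
Mean log2 signal in each of 8 brain regions (columns, 11 or 12 arrays each) of the 29 homeobox genes above 4 in 1 or more regions (rows, by family). Irx3, Irx1 and Nkx6-1 were above 4 in the VTA column only and Pou6f1 in the mPFC column only. Pbx3 and Meis1 were lowest in the mPFC column. All genes share 1 colour scale, but signals are to be compared among regions within a gene, not between genes.

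The VTA had the most members above the mean of the other 7 regions, 9 of 76, where 5.28% of all genes were higher there. Irx3, an Iroquois gene of the TALE class, ran from 5.95 to 8.88 (median 7.42) in the VTA, and from 3.41 to 4.03 (median 3.75) in the vBNST, the region nearest to it. No VTA array overlapped an array of another region. The difference from the other 7 regions was 4.25 ± 0.10 (SE, adjusted p = 1.24e-49, limma). Nkx6-1, a factor of the ventral neural tube, was between 4.42 and 8.45 (median 6.88) in the VTA and at most 2.90 in any other array (difference 3.54 ± 0.16, adjusted p = 1.53e-32). It was the member with the widest spread among VTA arrays, low and high arrays occurring in the non-dependent and dependent groups alike. Irx1, also of the Iroquois group, ran from 3.91 to 6.83 (median 4.85) in the VTA and was at most 3.78 in the vBNST, its next region (difference 2.55 ± 0.10, adjusted p = 2.24e-35). Where 1 side of a difference was under 4, as for these 3 genes and, below, for Lhx2 and En2 in the VTA and Pou6f1 in the mPFC, the signal is set against background and the difference is a lower bound. Dlx5 in the mPFC (3.89) and VTA (3.95) and Emx2 in the dlBNST (3.50) and vBNST (2.88) also averaged under 4, so their differences below are set against background. The same holds for Nkx2-2, Nkx6-2 and Six4, which averaged under 4 in all regions but the VTA. It holds too for Zfhx2, under 4 in all but the mPFC, and Pou3f4, under 4 in all but the NAcC and NAcSh. Irx2 differed in the same direction by 0.80 ± 0.05, under the size required for a call, and its VTA median was 3.58. Otx2, which patterns the midbrain and is kept in adult dopamine neurons, ran from 5.83 to 7.72 (median 6.44) in the VTA (difference 2.90 ± 0.16, adjusted p = 2.16e-26). Its VTA arrays overlapped those of the dlBNST, vBNST and NAcSh, which are described below.

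The remaining 5 members higher in the VTA were Pbx3 (2.01 ± 0.11), a TALE partner of other homeodomain proteins, Nkx6-2 (1.52 ± 0.10), an oligodendrocyte factor, Six4 (1.37 ± 0.11), Meis1 (1.07 ± 0.09) and Nkx2-2 (1.03 ± 0.06), which acts in the ventral neural tube and in oligodendrocyte development. In Nkx6-2 the VTA arrays ran from 3.80 to 6.58 (median 4.23), and 1 non-dependent array lay far above the others, while the lowest VTA array overlapped the dlBNST. Nkx2-2 was between 4.42 and 5.25 (median 4.90) in the VTA and at most 4.17 elsewhere, so the regions did not overlap although its call rested on a difference close to 1 (0.99 after quantile normalization). Oligodendrocyte markers (5 of 6 listed, all above 4) were also highest in the VTA, with mean levels of 10.94 to 11.81 per array against 8.29 to 10.31 elsewhere, and their part in the Nkx6-2 and Nkx2-2 differences was not tested.

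Promoters are shown for the 3 members with the largest VTA differences among those without overlap, so that they can be compared by sequence. Each is the stretch from 250 bases before to 50 bases after the annotated start, from RefSeq on GRCr8, written 5′ to 3′ on the gene's strand: Irx3 at chr19:31384868-31385167 (plus strand), Irx1 at chr1:33122872-33123171 (plus strand) and Nkx6-1 at chr14:8273988-8274287 (plus strand). Capitals mark TGACAG or its reverse complement CTGTCA, a core bound by Meis proteins. TAATTA, a core bound by many homeodomains, and ATGCAAAT, the octamer bound by POU proteins, were searched on both strands as well and occurred in none of the 3.
Irx3: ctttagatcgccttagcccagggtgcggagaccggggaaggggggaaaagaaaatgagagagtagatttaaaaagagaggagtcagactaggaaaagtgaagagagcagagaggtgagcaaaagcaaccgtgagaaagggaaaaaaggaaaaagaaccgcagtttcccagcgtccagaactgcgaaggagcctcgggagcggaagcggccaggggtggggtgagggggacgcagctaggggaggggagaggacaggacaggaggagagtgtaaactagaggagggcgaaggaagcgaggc
Irx1: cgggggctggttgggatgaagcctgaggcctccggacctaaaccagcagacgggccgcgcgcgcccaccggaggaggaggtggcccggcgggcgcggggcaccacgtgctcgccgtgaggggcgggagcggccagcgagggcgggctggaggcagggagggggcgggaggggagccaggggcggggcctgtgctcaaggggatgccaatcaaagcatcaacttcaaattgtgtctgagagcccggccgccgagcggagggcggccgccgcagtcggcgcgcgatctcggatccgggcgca
Nkx6-1: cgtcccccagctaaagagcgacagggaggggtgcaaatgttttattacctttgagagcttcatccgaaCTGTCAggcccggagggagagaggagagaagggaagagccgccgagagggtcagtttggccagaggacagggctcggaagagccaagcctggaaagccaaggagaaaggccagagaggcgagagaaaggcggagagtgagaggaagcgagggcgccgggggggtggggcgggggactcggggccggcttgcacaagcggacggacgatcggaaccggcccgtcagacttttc
The GC content was 55.7% in Irx3, 74% in Irx1 and 62.7% in Nkx6-1, with 13, 35 and 21 CG dinucleotides. The 54 promoters of the 49 members in the table had a median GC content of 62.8% and 22 CG dinucleotides, and all 33469 promoters had 51.7% and 7. TGACAG or its complement occurred in 11 of the 54 member promoters and in 19% of all promoters, TAATTA in 1 and in 5.36%, and ATGCAAAT in 0 and in 1.78%.

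Members lower in the VTA numbered 6 of 76, where 4.26% of all genes were lower. Lhx2, a LIM factor needed for cortical development, fell to background: its VTA arrays ran from 2.39 to 3.45 (median 2.80) and its mPFC arrays from 8.84 to 9.59 (median 9.14). The difference from the other 7 regions was -4.70 ± 0.09 (adjusted p = 2.35e-57), and only the vBNST, at 3.21 to 4.36, overlapped the VTA. Meis2, a TALE factor of the striatum and amygdala, was between 7.48 and 10.97 (median 7.95) in the VTA. In the NAcSh it was between 12.35 and 13.01 (median 12.78), and the difference of the VTA from the other regions was -3.84 ± 0.13 (adjusted p = 1.16e-39). The highest VTA array of Meis2 reached the lowest arrays of the BLA, and the 2 highest those of the vBNST, while the other regions lay above. Dlx1, a factor of forebrain GABA neurons, was between 3.46 and 4.37 (median 4.06) in the VTA (-2.35 ± 0.16, adjusted p = 2.46e-22), and Dlx5 of the same family between 3.07 and 4.67 (-1.79 ± 0.12). Emx2 (-1.55 ± 0.15), a patterning gene of the dorsal forebrain, and Pou3f1 (-1.46 ± 0.11) completed the list.

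**Figure D2:**
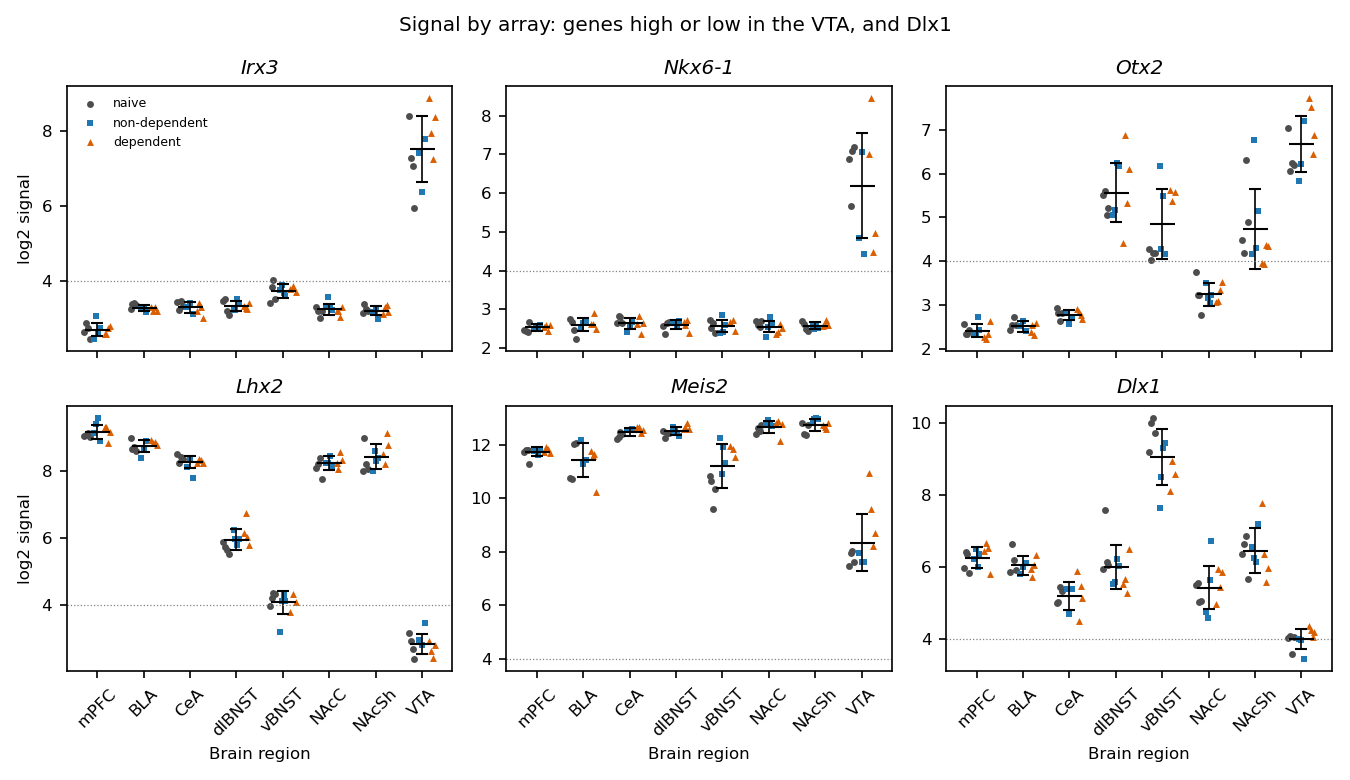
Log2 signal of 6 homeobox genes in each of 92 arrays, by region (x axis) and group (colour and shape); bars are the mean and SD of a region and the dotted line is 4. Irx3 and Nkx6-1 were above 4 in all VTA arrays and Lhx2 below it, Otx2 was also above 4 in the dlBNST and vBNST, and Dlx1 was highest in the vBNST.

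The mPFC stood furthest from the other regions over all genes, with 13.1% of genes higher and 9.32% lower there, so that its 6 higher and 8 lower members are to be read against a wide background. Pou6f1, a POU factor, ran from 5.78 to 8.42 (median 7.77) in the mPFC. It was at most 3.70 in every other array, without overlap (difference 4.12 ± 0.09, adjusted p = 1.08e-51). Pbx2 ran from 7.14 to 9.12 (median 8.42) in the mPFC and at most to 6.75, in the dlBNST, elsewhere (2.85 ± 0.11, adjusted p = 5.51e-36). Lhx2 was also higher (2.51 ± 0.08), and its order ran from the mPFC (9.16) over the BLA (8.74), NAcSh (8.43), CeA (8.25), NAcC (8.22), dlBNST (5.95) and vBNST (4.08) to the VTA, in which only the NAcSh and CeA, and the CeA and NAcC, did not differ from their neighbour by the adjusted p alone, with no size required. Emx1, a marker of cortical projection neurons, was between 3.30 and 4.38 (median 4.06) in the mPFC and at most 2.75 elsewhere (1.45 ± 0.05, adjusted p = 3.78e-41). Its mPFC mean, 3.92, was itself under 4, so both sides of this difference averaged under the line of background. The remaining 2 were Zfhx2 (1.25 ± 0.08) and Pou3f3 (1.07 ± 0.08), a POU factor of upper cortical layers, and Pou3f3 was no longer called after median scaling (0.80).

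The promoters of Pou6f1 (chr7:133565581-133565880, minus strand) and Emx1 (chr4:119282442-119282741, plus strand) are given as 2 of the members that were higher in the mPFC without overlap, in the same form and with the same capitals. Both held CTGTCA once.
Pou6f1: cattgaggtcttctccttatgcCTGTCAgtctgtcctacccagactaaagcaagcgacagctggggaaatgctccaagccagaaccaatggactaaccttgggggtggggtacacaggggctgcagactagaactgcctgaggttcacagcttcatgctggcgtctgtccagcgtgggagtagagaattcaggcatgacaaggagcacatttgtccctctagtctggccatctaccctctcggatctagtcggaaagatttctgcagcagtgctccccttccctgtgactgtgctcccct
Emx1: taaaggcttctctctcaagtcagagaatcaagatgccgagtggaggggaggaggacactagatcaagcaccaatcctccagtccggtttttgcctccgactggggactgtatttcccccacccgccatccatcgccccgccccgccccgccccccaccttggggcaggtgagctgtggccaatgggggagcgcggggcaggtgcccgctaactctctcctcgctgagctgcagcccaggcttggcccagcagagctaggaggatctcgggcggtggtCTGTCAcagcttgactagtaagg
Pou6f1 had 54.3% GC and 5 CG dinucleotides and Emx1 had 62.7% and 14.

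The lower members in the mPFC were led by the TALE genes Pbx3 and Meis1. Pbx3 ran from 5.84 to 7.34 (median 6.66) in the mPFC and was at least 9.97 in every other array, a difference of -4.97 ± 0.11 (adjusted p = 2.03e-53). Meis1 ran from 4.05 to 4.84 (median 4.63) in the mPFC and was at least 7.86, in the NAcSh, elsewhere (-4.87 ± 0.09, adjusted p = 6.45e-58). Neither gene's mPFC arrays overlapped those of another region. Zfhx3, a large zinc finger homeobox protein known from circadian timing, was between 6.48 and 8.42 (median 7.46) in the mPFC (-3.09 ± 0.11, adjusted p = 5.42e-39), overlapping only the BLA. Meis2, by contrast with its relative Meis1, was between 11.29 and 11.92 (median 11.79) in the mPFC. The other lower members were Otx2 (-1.92 ± 0.16), Dlx5 (-1.91 ± 0.11), Zfhx4 (-1.45 ± 0.12), Irx3 (-1.25 ± 0.10) and Gbx2 (-1.24 ± 0.15). The lower mPFC signal of Zfhx4 was not seen in its second bright probe set. That one averaged 6.62 in the mPFC, above the BLA (4.43), NAcSh (5.53), CeA (6.02), VTA (6.07) and NAcC (6.30). Only the dlBNST (7.34) and vBNST (7.45) were higher. Otx2, Irx3 and Gbx2 averaged under 4 in the mPFC, and Irx3 did so in all regions but the VTA, Gbx2 in all but the vBNST and NAcSh, and Otx2 in the BLA, CeA and NAcC too. Their mPFC differences lie between background and a mean raised by the other regions. Dlx5 averaged 3.89 in the mPFC, also under 4, so its difference is set against background too.

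**Figure D3:**
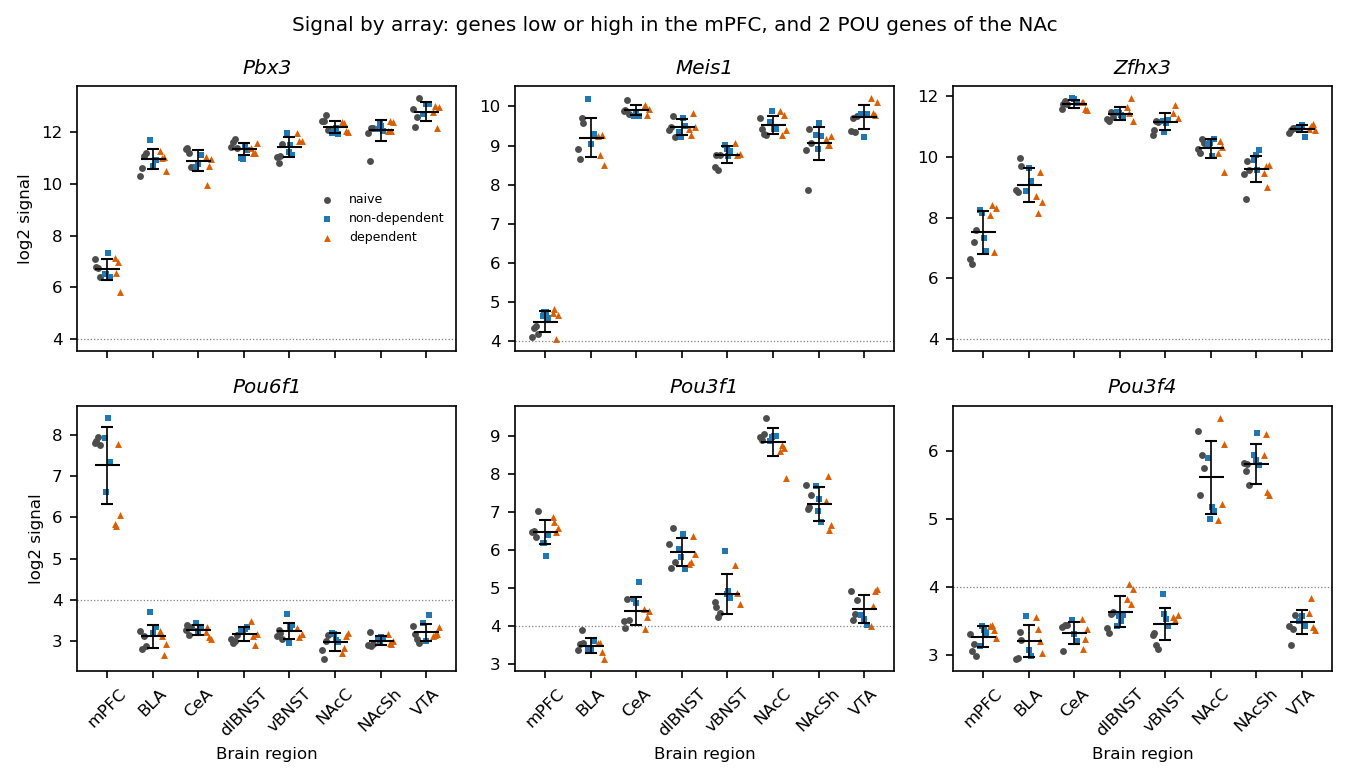
Log2 signal of 6 homeobox genes in each of 92 arrays, by region and group, with the mean and SD of each region and a dotted line at 4. Pbx3 and Meis1 were lowest and Pou6f1 highest in the mPFC without overlap, Zfhx3 was lowest in the mPFC and BLA, and Pou3f1 and Pou3f4 were highest in the NAcC and NAcSh.

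Between the mPFC and the BLA 10 of 76 members differed, where 19.7% of all genes did. The list of cortical-type glutamatergic neurons (4 of 5 genes) had mean levels of 6.93 to 7.45 in the mPFC and 5.74 to 6.76 in the BLA, and its part in the differences was not tested. Pou6f1 (4.13 ± 0.13), Pou3f1 (2.99 ± 0.14) and Pbx2 (2.86 ± 0.16) were higher in the mPFC, and Meis1 (-4.72 ± 0.12), Pbx3 (-4.26 ± 0.14) and Zfhx3 (-1.58 ± 0.15) were higher in the BLA. The differences of Lhx2 and Emx2, factors of dorsal forebrain development, stayed under 1 between the regions.

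In the BLA, 2 members were higher than in the other regions (1.55% of all genes), Lhx2 (2.03 ± 0.09) and Emx2 (1.74 ± 0.15). The 4 lower members (0.668% of all genes) were Zfhx4 (-3.03 ± 0.13), Pou3f1 (-2.55 ± 0.11), Otx2 (-1.81 ± 0.16) and Zfhx3 (-1.28 ± 0.12). Zfhx4, a zinc finger homeobox gene like Zfhx3, ran from 3.86 to 6.24 (median 4.76) in the BLA. In the adjoining CeA it ran from 7.97 to 8.47 (median 8.27). The amygdala nuclei did not overlap. Pou3f1, a POU factor known from myelinating glia, was between 3.12 and 3.88 (median 3.51) in the BLA, which put it under background there.

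In the CeA the 4 higher members (0.964% of all genes) were Zfhx3 (1.76 ± 0.12), Lhx2 (1.48 ± 0.09), Meis1 (1.28 ± 0.09) and Dlx5 (1.24 ± 0.12), and the 2 lower ones (1.17%) Otx2 (-1.52 ± 0.16) and Pou3f1 (-1.46 ± 0.11). Zfhx3 ran from 11.55 to 11.93 (median 11.78) in the CeA and from 8.14 to 9.97 (median 8.89) in the BLA, without overlap. With all 96 arrays the Meis1 difference was 0.78 and was not called. Against the BLA directly, 5 members differed, where 3.57% of all genes did. Taken as BLA minus CeA, the differences were -3.46 ± 0.17 in Zfhx4, -2.66 ± 0.15 in Zfhx3, -1.79 ± 0.16 in Dlx5, -1.05 ± 0.17 in Meis2 and 1.12 ± 0.20 in Emx2. Against the dlBNST, the other nucleus of the extended amygdala with which it is often grouped, the CeA also differed in 5 members (1.34% of all genes): Emx2 (2.48 ± 0.20) and Lhx2 (2.30 ± 0.11) were higher in the CeA, and Otx2 (-2.79 ± 0.21), Pou3f1 (-1.51 ± 0.14) and Msx1 (-1.28 ± 0.29) lower.

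In the dlBNST 5 members were higher (0.816% of all genes): Otx2 (1.67 ± 0.16), Zfhx4 (1.57 ± 0.12), Zfhx3 (1.36 ± 0.11), Dlx5 (1.31 ± 0.11) and Meis2 (1.003 ± 0.13). In the vBNST 4 were higher (1.90%): Dlx1 (3.38 ± 0.16), Zfhx4 (2.05 ± 0.13), Gbx2 (1.87 ± 0.15) and Zfhx3 (1.09 ± 0.12). Emx2 and Lhx2 were the 2 lower members of both nuclei (0.661% of all genes in the dlBNST and 1.43% in the vBNST). Dlx1 ran from 7.64 to 10.14 (median 9.19) in the vBNST and from 5.29 to 7.58 (median 6.00) in the dlBNST, without overlap. Gbx2, which marks the thalamus and the border of the hindbrain in development, was between 4.11 and 6.78 (median 4.81) in the vBNST. It overlapped the dlBNST (2.86 to 4.44, median 3.36), the NAcC (2.82 to 4.81, median 3.31) and the NAcSh (3.13 to 6.12, median 4.33). Of 3 thalamus and habenula markers, Tcf7l2 averaged 8.62 in the vBNST and 8.86 in the NAcSh against 7.17 to 8.54 elsewhere. Prkcd averaged 4.37 and 4.45 there and 4.46 to 5.14 elsewhere, and Lef1 averaged 3.46 and 3.47 there and 4.56 in the mPFC. Their part in the Gbx2 differences was not tested. Lhx2 was between 3.21 and 4.36 (median 4.11) in the vBNST and between 5.53 and 6.74 (median 5.92) in the dlBNST, again without overlap.

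Between these 2 nuclei 7 of 76 members differed, where 1.70% of all genes did. Dlx1 (-3.00 ± 0.21) and Gbx2 (-1.57 ± 0.20) were lower in the dlBNST, and Lhx2 (1.87 ± 0.11), Meis2 (1.27 ± 0.17), Dlx5 (1.11 ± 0.15), Pou3f1 (1.09 ± 0.14) and Msx1 (1.05 ± 0.29) were higher there. Dlx1 and Dlx5, both factors of GABA neurons, thus ran in opposite directions, while the GABA marker Slc32a1 averaged 10.5 in the dlBNST and 10.7 in the vBNST.

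In the NAcC 6 members were higher (2.49% of all genes) and in the NAcSh 8 (2.08%). Pou3f1 ran from 7.88 to 9.48 (median 8.94) in the NAcC. It ran from 6.52 to 7.95 (median 7.20) in the NAcSh, with the top of the shell just reaching the bottom of the core. The difference from the other 7 regions was 3.60 ± 0.11 in the NAcC (adjusted p = 1.01e-42) and 1.73 ± 0.11 in the NAcSh. Pou3f4, a POU factor of striatal precursors, was between 4.99 and 6.49 (median 5.55) in the NAcC, between 5.34 and 6.26 (median 5.81) in the NAcSh and at most 4.04 elsewhere (1.87 ± 0.08 and 2.09 ± 0.08), and core and shell differed by -0.19 (adjusted p = 0.218 for Pou3f4). Emx2 (1.83 ± 0.14 and 1.98 ± 0.14), Lhx2 (1.44 ± 0.08 and 1.68 ± 0.08), Pbx3 (1.31 ± 0.11 and 1.16 ± 0.11) and Meis2 (1.18 ± 0.13 and 1.26 ± 0.13) were higher in both. Msx1 (1.86 ± 0.21) and Gbx2 (1.13 ± 0.15) were higher in the NAcSh. The lower members were Pbx2 in the NAcC (-1.12 ± 0.11, where 3.33% of all genes were lower), which was not called after median scaling (-0.97), and Zfhx4 in the NAcSh (-1.18 ± 0.12, 2.50%).

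Core and shell differed in 5 of 76 members (1.32% of all genes). Pou3f1 (1.64 ± 0.14) and Zfhx4 (1.38 ± 0.17) were higher in the core, and Msx1 (-1.57 ± 0.28), Otx2 (-1.49 ± 0.21) and Dlx1 (-1.02 ± 0.20) in the shell.

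Otx2 is also a gene of the choroid plexus, and markers of tissue beside the ventricles are given here for Otx2 and Msx1. Otx2 ran from 4.43 to 6.87 (median 5.42) in the dlBNST, where Ttr, the transthyretin made by choroid plexus, ran from 6.95 to 11.16. In the vBNST Otx2 was between 4.03 and 6.18 (median 4.29) and Ttr between 4.48 and 9.78. In the VTA Ttr was at most 5.60 with the highest Otx2 signals of the series, and in the NAcSh at most 5.25 with Otx2 between 3.94 and 6.77 (median 4.36). Of the 4 other choroid plexus markers measured, Kl, Folr1 and Aqp1 averaged under 4 in every region and Ttr was the only one above it. Within the dlBNST the array with the highest Otx2 (6.87, dependent 2) had Ttr at 9.97, and that with the lowest (4.43, dependent 1) had Ttr at 9.79. The dlBNST array with the highest Ttr (11.16, non-dependent 4) had Otx2 at 6.16, and that with the lowest (6.95, naive 3) had Otx2 at 5.06. In the NAcC the array with the highest Ttr (7.53) had Otx2 at 3.24. Msx1, an effector of BMP signalling, was between 4.80 and 7.99 (median 6.42) in the NAcSh, where the ependyma marker Tmem212 was between 3.93 and 6.50. The NAcSh array with the highest Msx1 (7.99, non-dependent 4) had Tmem212 at 6.28, and that with the lowest Tmem212 (3.93, dependent 3) had Msx1 at 6.75. In the dlBNST, dependent array 2 had the highest Msx1 signal (8.52) and the highest Tmem212 signal (7.05) of all arrays, and the next 2 Msx1 signals there (6.88 and 6.77) came with Tmem212 at 5.25 and 4.99. Foxj1, the second ependyma marker measured, averaged 4.09 in the dlBNST and 4.03 in the NAcSh against 3.54 to 4.26 in the other regions. The part of choroid plexus and ependyma in the Otx2 and Msx1 differences was not tested. Without the 5 arrays with markers of neighbouring tissue, the calls of Otx2 and of Msx1 (NAcSh) against the other regions that the naming rule picked stayed. The Msx1 differences of the dlBNST from the vBNST and CeA were not followed there. The dlBNST arrays left out, dependent 2 and non-dependent 4, had the highest Msx1 signals of that region (8.52 and 6.88). Whether these pair differences stay over 1 without them was not tested. The 5 arrays were picked by the cortical-type (NAcSh), ependyma (dlBNST) and cholinergic (VTA) lists, and none by the choroid plexus list. Each was picked against its own region's median, so leaving them out cannot address tissue present in all arrays of a region.

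**Figure D4:**
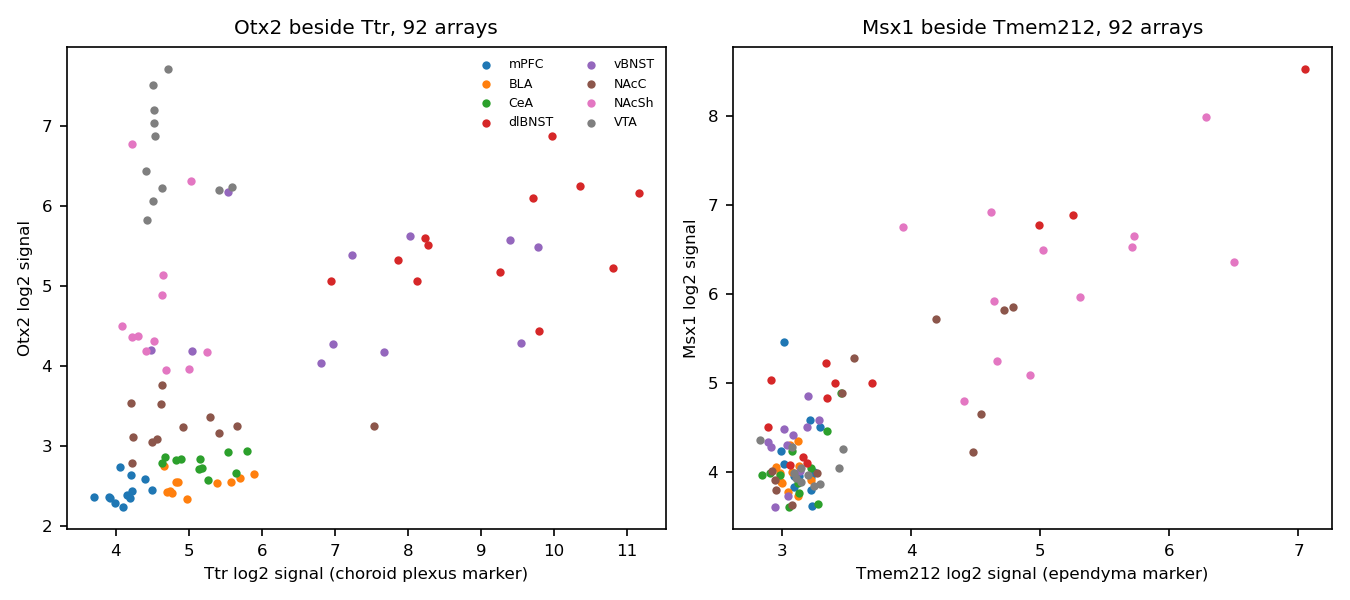
Left, Otx2 against Ttr and right, Msx1 against Tmem212, log2 signals in each of 92 arrays, coloured by region. VTA arrays had Otx2 of 5.83 or more with Ttr of 5.60 or less, dlBNST arrays had Otx2 of 4.43 or more with Ttr of 6.95 or more, and the array with the highest Msx1 (8.52, dlBNST dependent 2) also had the highest Tmem212 (7.05).

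The 9 members above 4 in all 8 regions were not even: their ranges ran from 1.01 in Nkx2-1 to 6.09 in Pbx3. Nkx2-1, a factor of the ventral forebrain, was highest in the vBNST (5.12 to 6.02, median 5.47) and lowest in the mPFC (4.32 to 4.84, median 4.49), and its difference of 0.58 ± 0.06 in the vBNST stayed under 1. Pou3f3 ranged over 1.66, Pbx2 over 3.47, Zfhx3 over 4.23 and Meis2 over 4.40. Several genes known from these regions were at or near background. Isl1, a LIM factor of striatal output neurons, averaged 3.61 in the NAcSh, 3.42 in the NAcC and 2.59 in the BLA (0.65 ± 0.08 in the NAcSh against the others). Lhx9 differed by at most 0.41 (BLA), Pou4f1, a factor of sensory and habenular neurons, by 0.48 (VTA), Six3 by 0.31 (CeA), Otx1 by 0.11 (CeA) and Pou3f2 by -0.08 (BLA). In these 5 genes every array was at or below 3.86, and a low probe set signal cannot tell a silent gene from a probe set that detects it poorly.

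Probe sets of 1 gene did not always run alike. Of the 76 members 19 had more than 1 probe set. The probe sets not used for Irx1, Irx3, Otx2, Gbx2 and Pou6f1 stayed under 4 in every region, with a range of 0.14 (Otx2) to 0.54 (Irx3). For Zfhx3 the other 2 had a Pearson correlation of 0.98 and 0.84 with the one used over 8 regions, and for Zfhx4 the second bright one 0.82, as a description over regions that share arrays. The 2 bright probe sets of Zfhx4 nevertheless placed the mPFC differently, as given above. With the mean of a gene's probe sets, 44 of the 51 region calls picked by the naming rule remained, and the 7 lost were 3 of Otx2 (BLA, CeA and dlBNST), 3 of Zfhx4 (dlBNST, vBNST and NAcSh) and Gbx2 in the vBNST. Irx5 had an unused probe set that reached 4.06 in the VTA and 2.27 in the mPFC while the one used ranged over 0.41.

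Other homeobox genes and LIM cofactors outside the prefixes differed among regions in 21 of 46 cases, against 44.6% of all genes. En2, a gene of the midbrain and hindbrain, was 9.61 in the VTA and 2.76 on average elsewhere (6.85 ± 0.06). Tshz3 (4.57 ± 0.10) and Cux2 (2.25 ± 0.10), a marker of upper cortical layers, were higher in the mPFC, Onecut2 (3.22 ± 0.10) and Meox2 (3.01 ± 0.12) in the NAcC, and Pax6 (2.25 ± 0.13) in the CeA. Ldb2, a cofactor of LIM proteins such as Lhx2, was lower in the VTA (-3.37 ± 0.09) and higher in the mPFC (2.80 ± 0.08). Hopx was lower in the vBNST (-2.20 ± 0.15).

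No homeobox gene passed the test between groups of rats. In each region the members with a mean above 4, between 13 and 21 genes, were compared among groups, and 0 passed an adjusted p of 0.05 in any of the 24 comparisons (limma), where 21 of 207918 gene tests did. Of these, 0.0779% of genes passed from naive to non-dependent and 0.0556% from naive to dependent in the mPFC, 0.103% from naive to dependent in the dlBNST, and 0 in the other 21 comparisons. At an unadjusted p under 0.05 there were 53 of 402 member tests (13.2%), against 8.79% of the tests of all genes. The comparisons share groups and members, so these counts are no sum of independent tests. With array weights, 2 of 17 members passed from naive to dependent in the mPFC (2.77% of all genes), 1 of 17 from naive to dependent in the vBNST (1.07%) and 5 of 21 from non-dependent to dependent in the VTA (13.1%).

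The member tests with the smallest p were in the VTA, vBNST and mPFC. Zfhx4 in the VTA was 7.49, 7.45 and 7.55 in non-dependent rats, 8.52, 9.32, 8.80 and 8.78 in dependent rats, and 7.67, 7.70, 8.51 and 7.40 in naive rats. All dependent arrays were above all others, naive replicate 3 nearly reaching them. The difference from non-dependent to dependent was 1.36 ± 0.24 (adjusted p = 0.104) and from naive to dependent 1.03 ± 0.23 (adjusted p = 0.340). The first passed the threshold with array weights (adjusted p = 0.00635) and without dependent replicate 3 (adjusted p = 0.0386). From non-dependent to dependent, 6 of 21 members did not overlap in the VTA, where 14.9% of all genes did not. Meis2 was among them, at 7.95, 7.62 and 7.61 against 10.97, 9.61, 8.21 and 8.71 (1.65 ± 0.50, adjusted p = 0.191). The blood markers of the VTA, 2 of 3 listed, also did not overlap, with mean levels of 5.63 to 5.95 in non-dependent and 4.87 to 5.52 in dependent rats, and their part was not tested.

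In the vBNST Meis2 was 10.85, 10.63, 9.60 and 10.36 in naive, 12.27, 10.93, 11.93 and 11.34 in non-dependent and 11.97, 11.85 and 11.54 in dependent rats. The naive arrays were below all others. The differences from naive were 1.42 ± 0.32 for dependent (adjusted p = 0.0890, and 0.0385 with array weights) and 1.26 ± 0.30 for non-dependent rats (adjusted p = 0.363). From naive to dependent 7 of 17 members did not overlap in the vBNST, where 13.1% of all genes did not: Meis2, Otx2 (1.35 ± 0.38), Zfhx3, Pbx3, Pou3f3 and Meis1 were higher and Dlx1 (-1.21 ± 0.38) lower in dependent rats, none of them past the threshold. In the same comparison the choroid plexus list without Otx2 (4 of 6 genes, 1 above 4) had mean levels of 3.24 to 3.85 in naive and 3.96 to 4.62 in dependent rats. The striatal neuron list (6 of 6) had 3.54 to 3.71 and 3.87 to 4.07, and the thalamus and habenula list without Gbx2 (3 of 4) 5.21 to 5.42 and 5.61 to 5.80. The part of these tissues in the differences was not tested. Pou2f2, a POU factor known from lymphocytes, was 4.03, 4.17, 4.18 and 4.01 in non-dependent and 4.53, 4.75 and 4.85 in dependent rats of the vBNST, near background (0.61 ± 0.15, adjusted p = 0.776).

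In the mPFC Pbx2 was 8.54, 8.65, 9.12 and 8.65 in naive, 8.60, 7.61, 8.06 and 8.49 in non-dependent and 7.14, 7.18, 8.36 and 7.56 in dependent rats. Naive and dependent rats did not overlap (-1.18 ± 0.28, adjusted p = 0.109), as was so for 2 of 17 members and 7.16% of all genes. Pou6f1 was 7.81, 7.86, 7.95 and 7.76 in naive, 7.93, 6.62, 8.42 and 7.36 in non-dependent and 5.84, 5.78, 7.77 and 6.05 in dependent rats (-1.48 ± 0.43 from naive to dependent, adjusted p = 0.135). Dependent replicate 3 was the highest dependent array in both genes, and without it both differences passed the threshold (Pbx2 -1.45, adjusted p = 0.00594, and Pou6f1 -1.95, adjusted p = 0.00611), as they did with array weights (adjusted p = 0.0245 and 0.0275). Without it 602 of 8985 genes passed in that comparison, against 5 of 8989 with it. Astrocyte markers (5 of 5, all above 4) had mean levels of 9.47 to 9.87 in naive and 9.19 to 9.36 in dependent rats of the mPFC, and their part was not tested.

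Whether the effect of group differed among regions was tested with the interaction of region and group. It passed an adjusted p of 0.05 in 2 of 76 members, Meis2 (adjusted p = 0.0122) and Pou6f1 (adjusted p = 0.0223), where 1.84% of all genes passed. With all 96 arrays 0 members passed (0.422% of all genes) and with array weights 7 (7.48%). Leaving out 1 replicate number of 1 group in all regions gave 0 without naive 3, naive 4, non-dependent 4, dependent 1 or dependent 2, where 0.605% to 1.24% of all genes passed, and 6 without dependent 3, where 4.31% did. Pou6f1 was above 4 in the mPFC only.

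**Figure D5:**
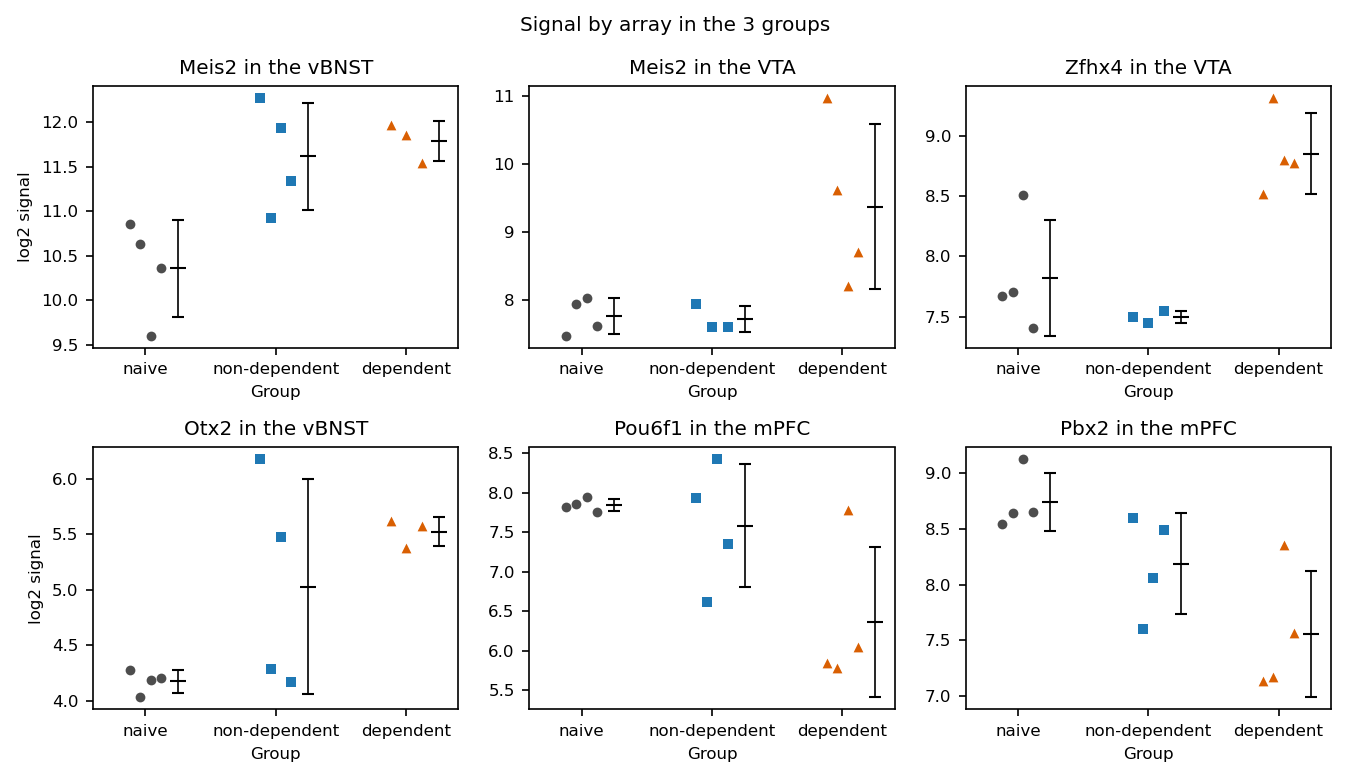
Log2 signal of each array in naive, non-dependent and dependent rats for Meis2 in the vBNST and VTA, Zfhx4 in the VTA, Otx2 in the vBNST, and Pou6f1 and Pbx2 in the mPFC, with the mean and SD of each group (3 or 4 arrays). Dependent arrays lay above the non-dependent ones in both VTA panels and naive arrays below the dependent ones in both vBNST panels. In the mPFC dependent replicate 3 was the highest dependent array in both genes and lay far apart from the others in Pou6f1. No difference passed the threshold with all arrays weighted equally.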

How the data were processed

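Gene expression was measured on 1 Affymetrix rat array for each region, group and replicate. The deposited values are log2 intensities, which the authors computed with GCRMA 2.36.0 under R 3.03, per the labels. Probe sets that name a single gene in the platform annotation were used (20832 of 31099), and for each gene the one with the highest mean. Members and lists were chosen with earlier results of these data known.

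Regions were compared with limma 3.58.1 in R 4.3.3. Each region and group had its own coefficient over 92 arrays, and each region was set against the mean of the other 7 or in 5 pairs. Neighbours in an order of regions were compared in the same fit by the adjusted p alone. A call needed an adjusted p under 0.05 (Benjamini-Hochberg over 14218 genes) and a difference over 1. Groups were compared in 1 fit per region on genes with a mean above 4. Both fits were run on simulated data with independent noise. That simulation had no rats shared between regions and no outlying arrays, so it does not test the fits under those conditions. Genes were named by rule: up to 4 higher and 3 lower members per region, up to 5 above 4 in all regions with the smallest range, those past the interaction test, the 6 smallest group p-values, and a list of known regional genes. Otx2 and Dlx1 in the vBNST, Meis2 in the VTA, the other members that did not overlap, members that complete a count, the pair differences and Irx5 were named after their values were seen. Alternatives were the normalization, probe set averaging, array weights, limma-trend, filters, sizes, a replicate block and leaving out arrays. The number of arrays, 11 or 12 per region and 3 or 4 per group, limits the precision. Figures were drawn with matplotlib 3.10.9 in Python 3.11.15.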

Additional observations from a re-analysis of the deposited data

Results flagged for a closer look

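In the mPFC, Pou6f1 of dependent replicate 3 (7.77) lay far above the other 3 dependent arrays, the nearest of which was at 6.05, a gap of 0.867 of the group's range. Of 9 sets of 4 arrays tested in this way, 1 stood out so, and chance gives about 1 in 20. The effect of group differed among regions in Meis2 (adjusted p of the interaction 0.0122) and in Pou6f1 (adjusted p 0.0223), as described above with the arrays on which these values depend.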

How the results depend on the processing

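No region or group difference picked by the naming rule changed its direction under any alternative run. Pair differences, members that complete a count and differences named after their values were seen were not followed gene by gene. Of the 51 region differences picked by the naming rule and called, all stayed called with limma-trend, array weights and the replicate block and without the arrays with markers of neighbouring tissue (an alternative chosen after seeing the data), 50 with all 96 arrays, after quantile normalization and in naive arrays alone, 48 after median scaling and 44 with the mean of probe sets. Of these, 41 passed the filter on a mean above 4 and all 41 stayed called. With that filter 15 members differed among regions, 3 were higher in the mPFC, 3 were higher in the VTA and 1 passed the interaction, since fewer genes were tested. With the mean of probe sets, members numbered 4 lower in the mPFC, 1 lower in the CeA, 3 higher in the dlBNST, 2 higher in the vBNST, 0 lower in the NAcSh and 3 between core and shell. After median scaling 0 were lower in the NAcC, and in naive arrays alone 4 were lower in the vBNST.

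Counts followed the size required by construction. At a difference over 2, higher and lower members numbered 3 and 3 in the mPFC, 1 and 2 in the BLA, 0 and 0 in the CeA, 0 and 1 in the dlBNST, 1 and 0 in the NAcC, 1 and 0 in the NAcSh and 5 and 3 in the VTA, with 2 higher in the vBNST. In the pairs they numbered 0 for NAcC and NAcSh, 1 for dlBNST and vBNST, 2 for CeA and BLA, 5 for mPFC and BLA and 3 for CeA and dlBNST. At a difference over 0.5 they numbered 10 higher and 14 lower in the mPFC, 8 higher and 4 lower in the dlBNST and 15 higher and 12 lower in the VTA, with 13 lower in the BLA, 8 in the CeA, 6 in the vBNST, 7 in the NAcC and 7 in the NAcSh, and 12, 10, 17 and 9 in the last 4 pairs in the order above.

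The test of the interaction gave 0 members with all 96 arrays, 7 with array weights and 0 to 6 when 1 replicate was left out, where 0.422%, 7.48% and 0.605% to 4.31% of all genes passed. Array weights also gave 2 members from naive to dependent in the mPFC, 1 in the vBNST and 5 from non-dependent to dependent in the VTA, where 2.77%, 1.07% and 13.1% of all genes passed. Without 1 replicate the counts ran from 1 to 2 lower members in the NAcC, 0 to 1 from naive to non-dependent and 0 to 4 from naive to dependent in the mPFC, and 0 to 2 from non-dependent to dependent in the VTA (3.02%, 6.70% and 1.76% of all genes at the highest counts), in each group comparison with the highest count without dependent replicate 3. The cause was not tested.

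Replicate numbers gave no sign of pairing the samples. Deviations of arrays with the same number had a mean correlation of 0.0114 across regions of a group, against -0.0037 for other numbers. Deviations within a region and group cancel out, so the second value is tied to the first and is no separate reference. With the replicate block 28 members differed among regions and 2 passed the interaction, as without it. Low signals limit the comparison of the 47 members that were at or below 4 in every region.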
